A study of Rattus norvegicus with 6 samples.

Results

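Genes of the immediate early response, *Fos*, *Fosb*, *Fosl1*, *Fosl2*, *Jun*, *Junb*, *Jund*, *Atf3*, *Egr1* and *Myc*, were examined in cystic and normal rat kidneys. They were taken by name from the platform annotation, 10 genes of the 14217 with a probe set named for 1 gene alone, and the brightest probe set over 6 arrays stood for each gene. There were 3 kidney samples of heterozygous Han:SPRD Cy/+ and 3 of wild-type +/+ rats, all labelled as male and 10 weeks old, with 1 array per sample. The study's methods give a younger age for the arrays. Cy/+ rats carry 1 copy of a missense mutation in *Anks6* in every cell and develop slowly progressing cysts. The RNA was from whole kidney tissue, so fewer cells of a type and less RNA per cell cannot be told apart.

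Immediate early genes are transcribed within minutes of a growth factor, stress or injury signal, without new protein synthesis. Fos and Jun proteins pair through leucine zippers to form AP-1, which binds the AP-1 site (TGACTCA or TGAGTCA). Jun proteins can also pair with each other, and Atf3 can pair with Jun proteins or act as a repressor. Egr1 is a zinc finger factor induced through serum response factor (SRF), and Myc pairs with Max and binds the E-box (CACGTG) of genes for growth and ribosome production. In the kidney, these genes are known for their rapid induction in tubules after injury.

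Promoters of 6 members, *Fosb*, *Fosl1*, *Fosl2*, *Junb*, *Jund* and *Egr1*, were matched by symbol in RefSeq (GRCr8), and the 250 bases before each gene's start were searched. The motifs were the AP-1 site, the E-box, the cAMP response element or CRE (TGACGTCA) and the CArG box that SRF binds, on both strands. The promoters of *Egr1* and *Jund* are shown because they were the ones with a match. Both genes were higher in Cy/+ kidneys, as were *Junb* and *Fosl2*, whose promoters had no match. Capitals mark the matches, which do not overlap, and each sequence runs 5′ to 3′ on the gene's strand.
Egr1, GRCr8 chr18:26736828-26737077, plus strand: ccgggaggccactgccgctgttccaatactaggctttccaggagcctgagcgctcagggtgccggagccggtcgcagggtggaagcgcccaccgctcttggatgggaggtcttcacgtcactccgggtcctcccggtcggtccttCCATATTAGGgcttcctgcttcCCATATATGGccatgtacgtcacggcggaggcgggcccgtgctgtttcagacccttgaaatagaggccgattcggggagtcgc
Jund, GRCr8 chr16:18769772-18770021, minus strand: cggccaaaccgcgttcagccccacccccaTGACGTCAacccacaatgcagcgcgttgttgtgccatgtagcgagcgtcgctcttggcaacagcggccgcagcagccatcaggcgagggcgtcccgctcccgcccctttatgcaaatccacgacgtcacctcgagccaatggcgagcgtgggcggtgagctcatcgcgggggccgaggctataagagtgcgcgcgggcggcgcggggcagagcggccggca
The *Egr1* promoter held 2 CArG boxes, beginning 105 and 83 bases before the gene start. Of 33469 rat promoters of the same length, 501 (1.50%) held a CArG box and 7 held 2 or more. The *Jund* promoter held a CRE beginning 221 bases before the gene start, as did 1.59% of all promoters when any position was counted. An AP-1 site was found in 4.05% and an E-box in 5.59% of all promoters, and neither in those of the 6 members. These matches are letters in a sequence, and no binding was measured.

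Of the 10 genes, 8 were bright enough to be tested and 7 of these were higher in Cy/+ kidneys, none was lower and 1, *Jun*, did not pass the test. *Myc*, *Atf3*, *Egr1* and *Fos* rose most, by 5.65-, 5.02-, 3.55- and 3.36-fold, and *Junb*, *Jund* and *Fosl2* rose by 1.77-, 1.72- and 1.64-fold. *Fosb* and *Fosl1* lay below the level for testing in both genotypes. Differences between the genotypes were widespread on these arrays. By the same rule, 67.1% of the 18625 probe sets tested were called, 35.8% as higher and 31.3% as lower. With 1 probe set a gene, 66.7% of the 10645 genes tested were called, 37.4% as higher and 29.3% as lower. The 7 members that rose were also those without overlap between the genotypes, a pattern that 41.5% of all genes tested showed upward and 33.1% downward. Changes called higher and over 2-fold, as in 4 members, made up 12.6% of all genes tested. The median log2 fold change was 1.29 over the 8 members and 0.090 over all genes tested. Probe sets with a mean log2 signal under the 40th percentile (77.8 on the linear scale) were not tested, and the others were compared with limma, Benjamini-Hochberg adjustment over all probe sets tested and a threshold of 0.05. No source states that the samples of a genotype came from separate rats, so the p-values speak of the variation among these 6 samples alone, part of which may be technical.

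**Figure D1:**
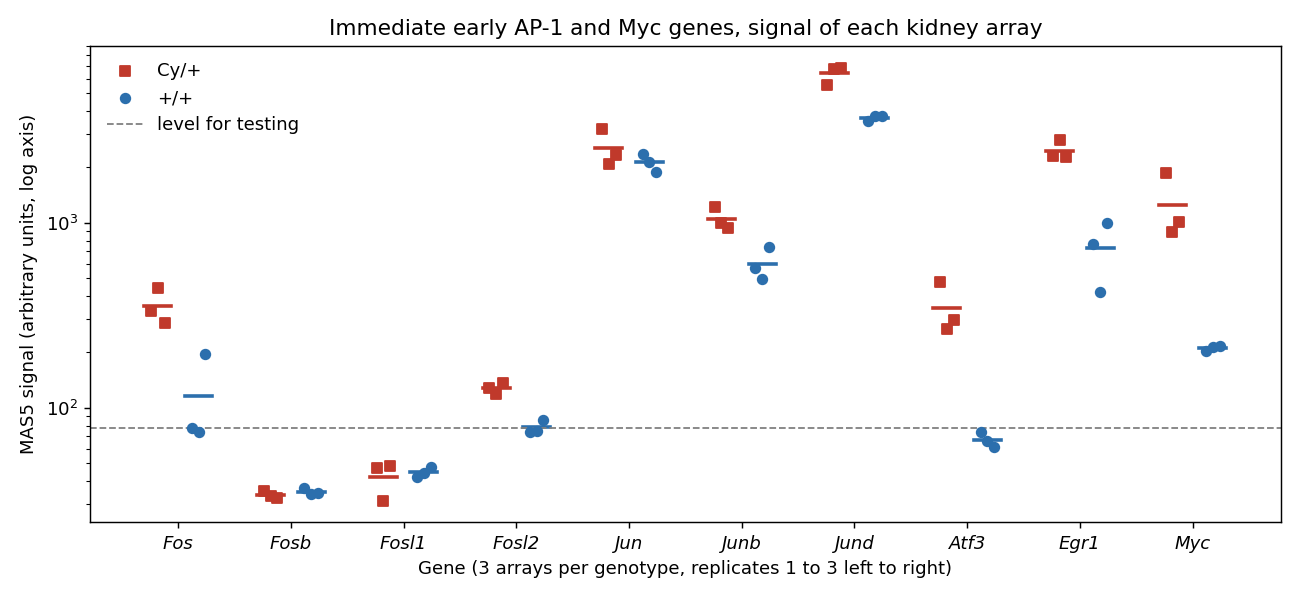
MAS5 signal of each array (arbitrary units, log axis) for the 10 genes, with Cy/+ arrays as squares left of +/+ arrays as circles, lines at the mean of 3 arrays and a dashed line at the level for testing, 77.8. All Cy/+ arrays lay above all +/+ arrays for *Fos*, *Fosl2*, *Junb*, *Jund*, *Atf3*, *Egr1* and *Myc*. Levels cannot be compared between genes.

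The arrays of the genotypes also differed in controls. Pairs of arrays correlated at 0.982 to 0.990 within Cy/+, at 0.997 within +/+ and at 0.907 to 0.940 across the genotypes (Pearson r over all probe sets, which are not independent). The 18 probe sets of the spiked-in hybridization controls were brighter on the Cy/+ than on the +/+ arrays without overlap (median 1.83-fold). Scaling each array to these controls lowered the median log2 fold change of all probe sets tested to -0.82, against 0.048 as deposited, and turned the split of calls to 1100 higher and 11643 lower, against 6661 and 5830. On that scale *Myc* (1.63), *Atf3* (1.46), *Egr1* (0.96) and *Fos* (0.88) were still called higher. *Fosl2* (-0.16), *Junb* (-0.049) and *Jund* (-0.086) turned sign without passing the test, and *Jun* (-0.64) was called lower. The 3'/5' signal ratio of the beta-actin controls, which reads RNA quality, was 3.22 ± 0.26 in Cy/+ and 1.51 ± 0.0057 in +/+ kidneys (SD, n = 3 each, exact two-sided permutation test, p = 0.1, the lowest that this design can reach). That of Gapdh was 1.85 ± 0.10 in Cy/+ and 1.18 ± 0.036 in +/+ kidneys (SD, n = 3 each, exact two-sided permutation test, p = 0.1). The part of these differences in the results below was not tested.

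*Fos*, the founding member of its family, gave signals of 332, 443 and 288 in the Cy/+ kidneys, against 77.8, 73.5 and 194 in the +/+ kidneys (probe set 1375043_at). The genotypes did not overlap, but +/+ replicate 3 stood well above the other +/+ kidneys. The log2 fold change was 1.75 (SE 0.38, limma adjusted p = 0.00501), and 2.20 without +/+ replicate 3. The second probe set of *Fos*, 1371283_at, was below the level for testing and averaged 65.5 ± 13.6 in Cy/+ and 78.0 ± 4.8 in +/+ kidneys (SD, n = 3 each), with overlapping arrays. With both probe sets averaged, *Fos* was still called higher, by 0.74 (limma adjusted p = 0.0263).

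*Fosl2* encodes Fra-2, a Fos protein that lacks the strong activation domain of Fos. Its signals were 128, 119 and 136 in Cy/+ kidneys, against 73.6, 74.9 and 85.8 in +/+ kidneys (probe set 1383860_at), so that the +/+ kidneys lay at the level for testing. The genotypes did not overlap, and *Fosl2* had the tightest Cy/+ arrays of the members that rose (SD of the log2 signal 0.10). Its log2 fold change was 0.71 (SE 0.11, limma adjusted p = 0.000906). The second probe set, 1387530_a_at, did not pass, at a log2 fold change of 0.039 with a 95% confidence interval of -0.27 to 0.35. With both averaged, *Fosl2* was called higher by 0.37 (limma adjusted p = 0.0188).

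*Fosb*, whose product pairs with Jun proteins and accumulates as a truncated form under chronic stimulation in the brain, gave 35.5, 33.3 and 32.5 in Cy/+ kidneys, against 36.7, 34.1 and 34.7 in +/+ kidneys. *Fosl1*, which encodes Fra-1, gave 47.3, 31.4 and 48.3 in Cy/+ kidneys, against 41.9, 44.3 and 48.0 in +/+ kidneys. The arrays of the genotypes overlapped for both genes. These signals were under the level for testing on every array, where a difference was not assessed.

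*Jun*, the partner that binds DNA with each Fos protein, had 3 probe sets that gave different answers. The brightest, 1389528_s_at, gave 3205, 2064 and 2311 in Cy/+ kidneys, against 2340, 2128 and 1883 in +/+ kidneys. Only Cy/+ replicate 1 stood above the +/+ arrays, and the log2 fold change of 0.24 did not pass the test (95% confidence interval -0.17 to 0.64, limma adjusted p = 0.254). Probe set 1369788_s_at gave 3107, 2330 and 2406 in Cy/+ kidneys, against 1869, 1412 and 1431 in +/+ kidneys. Its arrays did not overlap, with a log2 fold change of 0.74 (SE 0.15, limma adjusted p = 0.00445). The third, 1374404_at, overlapped and did not pass, at 0.29 (95% confidence interval -0.095 to 0.67, limma adjusted p = 0.153). With the 3 probe sets averaged *Jun* was called higher, at 0.42 (limma adjusted p = 0.0480).

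*Junb*, which encodes a weaker activator that can restrain Jun, gave 1218, 1001 and 937 in Cy/+ kidneys, against 567, 496 and 736 in +/+ kidneys (probe set 1387788_at). All Cy/+ arrays were higher, and +/+ replicate 3 was again the highest of its genotype. The log2 fold change was 0.82 (SE 0.17, limma adjusted p = 0.00385).

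*Jund* encodes the Jun protein that is made in most resting cells. Its signals were 5546, 6763 and 6883 in Cy/+ kidneys, against 3556, 3748 and 3786 in +/+ kidneys (probe set 1393138_at). The +/+ kidneys lay close together, and the log2 fold change was 0.79 (SE 0.10, limma adjusted p = 0.000431). The other probe sets of *Jund* were below the level for testing and lay the other way, at 34.7 ± 2.4 in Cy/+ and 39.9 ± 0.32 in +/+ kidneys for 1387762_s_at, and at 28.7 ± 2.1 in Cy/+ and 35.7 ± 3.8 in +/+ kidneys for 1375768_at (SD, n = 3 each). With the 3 probe sets averaged *Jund* did not pass, at 0.090 (limma adjusted p = 0.337).

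**Figure D2:**
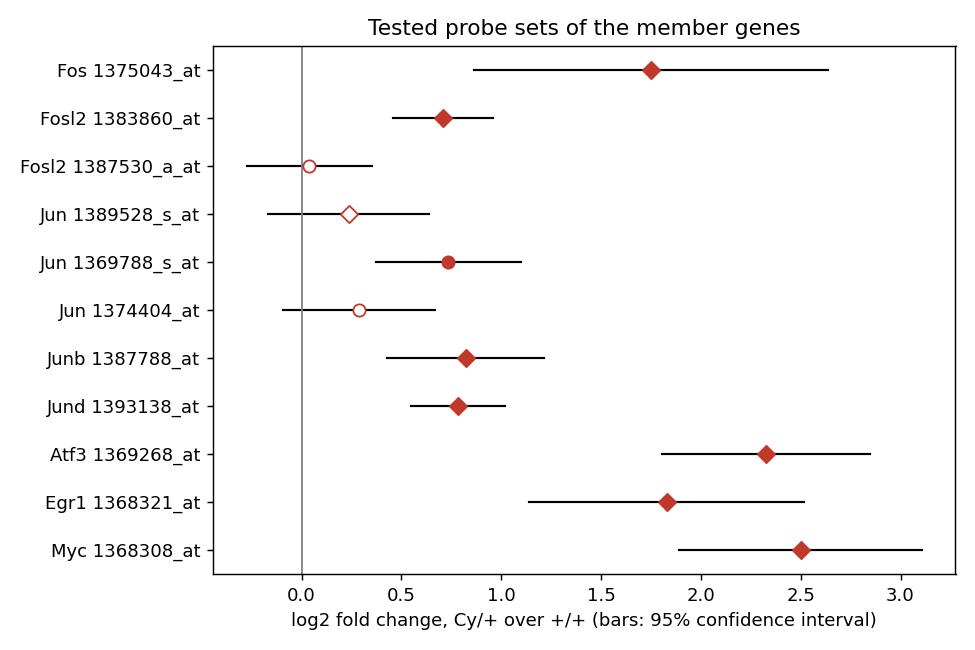
Log2 fold change, Cy/+ over +/+, of the 11 tested probe sets of the 8 members tested, with 95% confidence intervals from limma. Diamonds are the probe sets that represent a gene, circles the others, and filled symbols passed the threshold, which 1 of the 3 probe sets of *Jun* and 1 of the 2 of *Fosl2* did.

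*Atf3*, a stress-induced factor of the ATF family, gave 480, 265 and 296 in Cy/+ kidneys, against 73.7, 66.4 and 61.0 in +/+ kidneys (probe set 1369268_at). All Cy/+ arrays lay well above the +/+ arrays, and Cy/+ replicate 1 was the highest. The log2 fold change was 2.33 (SE 0.22, limma adjusted p = 0.000128). The mean log2 signal of the +/+ kidneys lay below the level for testing. The change is therefore also given against that level, as at least 4.31-fold higher in Cy/+ kidneys. All +/+ arrays lay below the level, so that *Atf3* was tested because of its Cy/+ arrays. Its rank among all genes tested rests on the full change of 2.33.

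*Egr1* gave 2289, 2799 and 2250 in Cy/+ kidneys, against 764, 423 and 997 in +/+ kidneys (probe set 1368321_at). The Cy/+ kidneys lay close together, while the +/+ kidneys spread widely (SD of the log2 signal 0.18 in Cy/+ and 0.63 in +/+). The log2 fold change was 1.83 (SE 0.29, limma adjusted p = 0.00125), with values of 1.48 to 2.10 when 1 array was left out.

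*Myc* gave 1856, 889 and 1008 in Cy/+ kidneys, against 203, 211 and 214 in +/+ kidneys (probe set 1368308_at). Its spread was the reverse of that of *Egr1*, with an SD of the log2 signal of 0.57 in Cy/+ and 0.038 in +/+ kidneys, and Cy/+ replicate 1 was the highest. The log2 fold change was 2.50 (SE 0.26, limma adjusted p = 0.000178), and 2.18 without Cy/+ replicate 1. By log2 fold change *Myc* ranked 124 and *Atf3* 154 of the 10645 genes tested, *Egr1* ranked 342 and *Fos* 391, and *Junb*, *Jund* and *Fosl2* ranked between 1821 and 2194.

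The members did not share 1 order among the arrays. *Myc*, *Atf3*, *Jun* and *Junb* were highest on Cy/+ replicate 1 among the Cy/+ kidneys, *Fos* and *Egr1* on replicate 2 and *Jund* and *Fosl2* on replicate 3. Among the +/+ kidneys, replicate 3 was the highest for 6 of the 8 members tested, for 18 of 38 other immediate early genes and for 28.7% of all genes tested. Markers of cell types also differed among the arrays. Of the Cy/+ kidneys, replicate 1 was the highest for 15 of 16 macrophage and monocyte markers, for 10 of 10 fibroblast markers and for 41.5% of all genes tested, and replicate 2 was the highest for 13 of 13 collecting duct markers. Of the +/+ kidneys, replicate 3 was the highest for 13 of 16 macrophage and 10 of 13 collecting duct markers. Their part in the members' values was not tested.

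**Figure D3:**
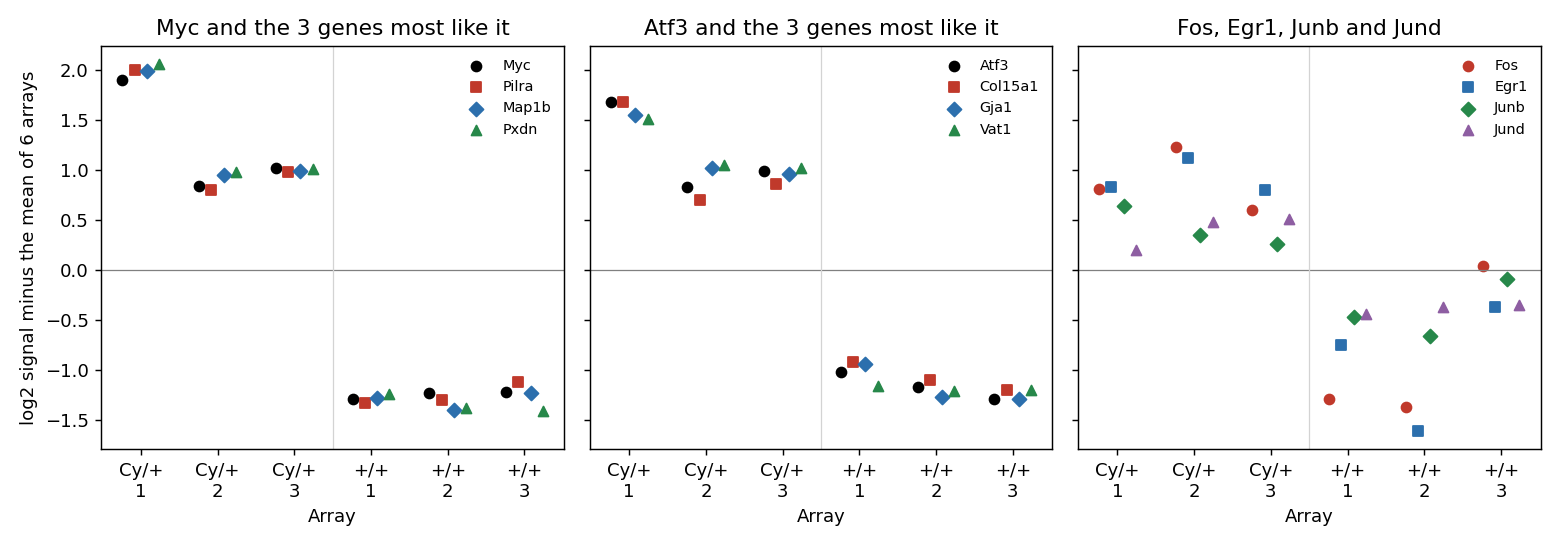
Log2 signal of each array minus the gene's mean over 6 arrays, with Cy/+ replicates left of +/+ replicates. *Myc* and *Atf3* stand beside the 3 genes most like each, all highest on Cy/+ replicate 1. In the right panel *Fos* and *Egr1* are highest on Cy/+ replicate 2, and all 4 genes shown are highest on replicate 3 among the +/+ kidneys.

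The genes most like *Myc* over the 6 arrays, by the root mean square difference of the log2 signals after each gene's mean was taken away, were *Pilra* (0.069), *Map1b* (0.090) and *Pxdn* (0.13). *Pilra*, which was at least 2.61-fold higher against the level for testing, encodes an inhibitory receptor of myeloid cells, *Map1b* a microtubule-associated protein and *Pxdn* a peroxidase that crosslinks collagen IV. *Map1b* gave 2190, 1067 and 1098 in Cy/+ kidneys, against 227, 210 and 236 in +/+ kidneys, with the Cy/+ arrays in the same order as for *Myc*. The genes most like *Atf3*, the AP-1 member with the largest change, were *Col15a1* (0.096), which encodes a basement membrane collagen, *Gja1* (0.11), the gene of connexin 43, and *Vat1* (0.13). Their log2 fold changes were 2.15, 2.34 and 2.38. With probe sets averaged per gene, *Gja1* was 0.58 and *Map1b* 1.29, against 2.34 and 2.61 for the brightest probe set. Likeness over 6 arrays of 2 genotypes describes the genotype difference and the spread of the Cy/+ arrays, and all these genes share the same arrays.

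Markers of several cell types moved between the genotypes on the same arrays. Of 16 macrophage and monocyte markers tested of 18 listed, 15 were higher in Cy/+ kidneys. The summed signal of the list was 20208 to 30524 in Cy/+ and 10557 to 11954 in +/+ kidneys. Each sum here covers all listed genes with a probe set, tested or not, so that bright genes weigh most. Of 10 fibroblast and myofibroblast markers tested of 12, 8 were higher (sums of 19614 to 37956 in Cy/+ and 7751 to 9027 in +/+ kidneys), and so were 5 of 6 lymphocyte markers tested of 16 listed. The 18 proximal tubule markers tested of 20 were all lower, with sums of 18365 to 45751 in Cy/+ and of 163154 to 172944 in +/+ kidneys. All 8 tubular injury genes tested of 10 were higher (sums of 59337 to 67017 in Cy/+ and 9849 to 12889 in +/+ kidneys). Of 9 distal tubule and thick ascending limb markers tested of 10, 3 were higher, 3 lower and 3 did not pass. Among the last, *Umod* gave 13290, 12630 and 19070 in Cy/+ kidneys, against 17280, 18840 and 17610 in +/+ kidneys, so that this defining kidney marker was bright in both genotypes. Endothelial markers were lower in 5 of 10 tested, and 5 did not pass. Collecting duct markers mostly did not pass (10 of 13), with 2 higher and 1 lower. Podocyte markers were divided, with 2 higher and 4 lower. The 6 proliferation markers tested of 12 gave 3 higher and 1 lower. Their sums overlapped, at 1048 to 1289 in Cy/+ and 1049 to 1179 in +/+ kidneys. Erythroid markers were lower in 2 of 3 tested, and the 1 neutrophil and mast cell marker tested was higher. With arrays scaled to the hybridization controls 4 of the macrophage and 4 of the fibroblast markers were called higher. The part of the cell types in the members' changes was not tested.

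Other immediate early genes were divided. Of 38 tested of 46 listed, 17 rose, 8 fell and 13 failed to pass, and the median change was 0.39 (log2). Of all genes tested, 37.4% were called higher and 29.3% lower, shares that stand beside this list and those below. Scaled to the hybridization controls, 3 were higher and 17 lower. *Egr2*, a relative of *Egr1*, gave 972, 295 and 248 in Cy/+ kidneys, against 42.1, 47.7 and 41.9 in +/+ kidneys, and was at least 5.32-fold higher against the level for testing (limma adjusted p = 0.000835). *Klf6*, a Krüppel-like factor induced by injury, rose by 2.34 on the log2 scale, and *Ier3* by 1.67. *Ier2* rose by 1.24, a call that was lost when scaled to the hybridization controls (0.37, limma adjusted p = 0.215). *Nr4a1*, an orphan nuclear receptor gene, gave 198, 179 and 155 in Cy/+ kidneys, against 275, 233 and 303 in +/+ kidneys, and fell by 0.61 on the log2 scale (limma adjusted p = 0.00617). *Trib1*, which encodes a pseudokinase, fell by 1.66. With probe sets averaged per gene, *Egr2* and *Trib1* were below the level for testing. By the mean over 6 arrays, 7 genes of the list lay below the level for testing, where a difference was not assessed, among them *Egr3* and *Ptgs2*. *Ptgs2* gave 24.7, 33.2 and 39.5 in Cy/+ kidneys, against 125, 121 and 144 in +/+ kidneys.

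The other bZIP genes, listed as possible partners of AP-1 members, changed in both directions, as did all genes tested. Whether each of their proteins pairs with an AP-1 member was not tested. Of 14 tested of 22, 6 were higher and 3 lower, with a median of 0.24, against 0 higher and 7 lower when scaled to the hybridization controls. *Atf5*, a stress-responsive factor, was higher by 1.35 on the log2 scale. *Batf*, which pairs with Jun proteins in lymphocytes and whose +/+ mean lay below the level for testing, was at least 1.75-fold higher against that level. Both calls were lost when scaled to the hybridization controls (*Atf5* 0.48, *Batf* 0.47). *Maf* fell by 1.45 on the log2 scale, at 2224, 1016 and 1153 in Cy/+ kidneys, against 4122, 3604 and 3549 in +/+ kidneys. *Atf2*, a Jun partner that binds the CRE, fell by 1.14.

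Of the kinases and factors upstream of the immediate early genes, 18 were tested of 32 listed. In Cy/+ kidneys 9 were higher and 2 lower (median log2 change 0.44), against 2 higher and 9 lower when scaled to the hybridization controls. *Map3k1*, a kinase above JNK, which phosphorylates Jun, gave 6652, 5447 and 5227 in Cy/+ kidneys, against 1186, 1362 and 1588 in +/+ kidneys, a log2 fold change of 2.07. *Elk4* (1.69) and *Elk3* (1.35), whose products sit beside SRF on the promoters of *Fos* and *Egr1*, were higher, as was *Nras* (1.13). The calls of *Elk3* (0.48) and *Nras* (0.26) were lost when scaled to the hybridization controls, and with probe sets averaged *Elk4* was 0.83 and *Nras* 0.46, both still called. *Srf* itself was higher by 0.60 on the log2 scale, which turned to -0.27 when scaled to the hybridization controls and to -0.046 with its probe sets averaged. These are transcript levels and do not measure the activity of a kinase.

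Known AP-1 target genes were mostly higher. Of 21 tested of 32 listed, 16 were higher, 1 was lower and 4 did not pass, and the median change was 1.63 (log2). When scaled to the hybridization controls, 13 were higher and 3 lower. *Krt19* and *Krt18*, keratins of simple epithelia, rose by 4.92 and 2.81, *Cd44*, the hyaluronan receptor gene, by 2.77 and *Vim*, the gene of vimentin, by 2.68 on the log2 scale. *Krt19* gave 2750, 7245 and 5963 in Cy/+ kidneys, against 123, 213 and 164 in +/+ kidneys, with replicate 1 the lowest of the Cy/+ kidneys where *Myc* and *Atf3* were highest. *Gclc*, which encodes a subunit of the enzyme that makes the glutathione precursor, fell by 2.00. The list shares *Spp1* and *Timp1* with the injury genes, and many of its genes are also expressed by macrophages or fibroblasts.

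*Max*, the partner that Myc needs to bind DNA, averaged 1390 ± 159 in Cy/+ and 1203 ± 19.9 in +/+ kidneys (SD, n = 3 each), and its log2 fold change of 0.20 did not pass (limma adjusted p = 0.106). Without Cy/+ replicate 3 it passed, at 0.28, and scaled to the hybridization controls it turned to -0.67. Of 17 genes of the MAX network tested of 22, 8 were higher and 3 lower (median 0.26), against 3 higher and 9 lower when scaled to the hybridization controls. *Mycl*, a relative of *Myc*, gave 409, 888 and 438 in Cy/+ kidneys, against 163, 142 and 161 in +/+ kidneys, a log2 fold change of 1.81. *Trrap* (1.78), a cofactor that Myc recruits, *Mga* (1.67), a Max-binding repressor, and *Fbxw7* (1.43), the ubiquitin ligase subunit that marks Myc for degradation, were also higher. The call of *Fbxw7* was lost when scaled to the hybridization controls (0.56), and with probe sets averaged it was 0.93 and still called. *Mga* was below the level for testing with probe sets averaged. The genes of the network called lower were *Mlxipl* (-0.82), *Mlx* (-0.75) and *Mxd1* (-0.62).

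Known Myc target genes went both ways, as did all genes tested. Of 46 tested of 49 listed, 22 rose, 12 fell and 12 failed to pass, and the median change was 0.23 (log2). Scaled to the hybridization controls, 4 were higher and 24 lower. *Gadd45a* is on both this list and that of other immediate early genes. *Ccnd2*, a G1 cyclin gene, was higher at 2.31, *Mcm6*, a subunit of the replicative helicase, at 2.14 and *E2f2*, a cell cycle factor, at 1.72. *Mcm6* gave 291, 471 and 397 in Cy/+ kidneys, against 80.9, 87.7 and 89.5 in +/+ kidneys. *Shmt2*, a mitochondrial enzyme of serine and glycine metabolism, fell by 1.75. *Odc1*, the gene of ornithine decarboxylase and a classical target of Myc, gave 2429, 1503 and 2739 in Cy/+ kidneys, against 5678, 7164 and 5407 in +/+ kidneys, and fell by 1.49 on the log2 scale (limma adjusted p = 0.00104).

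**Figure D4:**
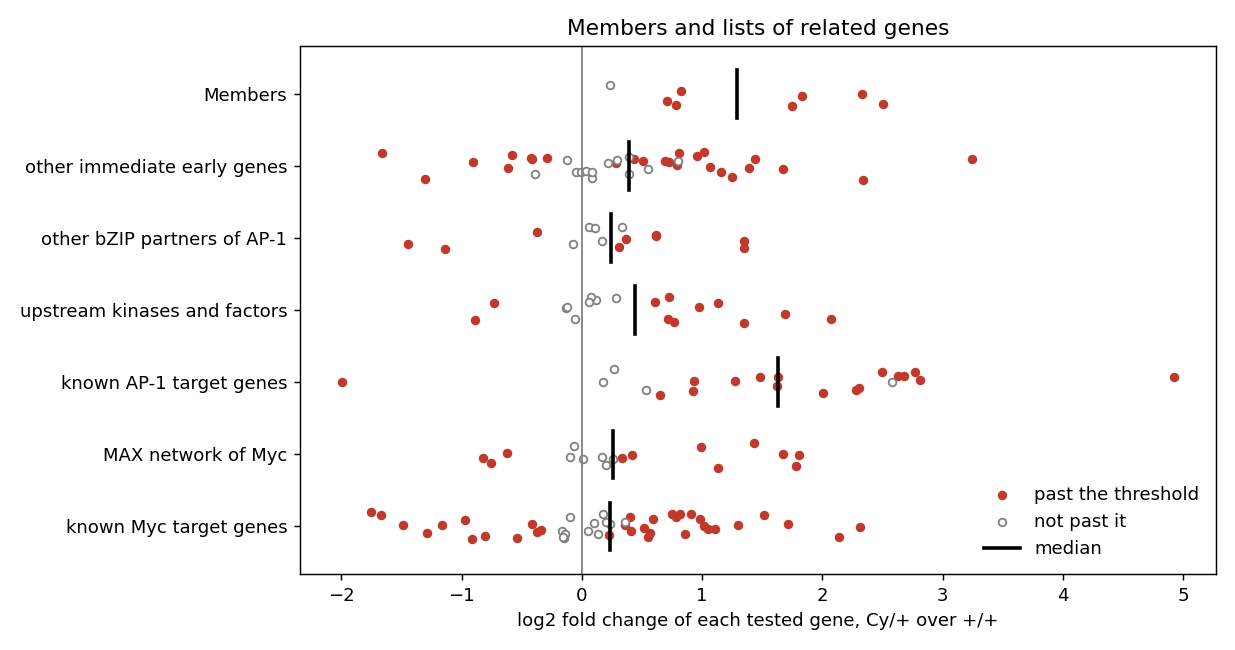
Log2 fold change, Cy/+ over +/+, of each tested gene of the members and of 6 lists of related genes, filled where the gene passed the threshold and open where it did not, with a bar at the median. The 8 members have a median of 1.29 and the known AP-1 target genes one of 1.63, while the other lists have medians of 0.23 to 0.44.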

How the data were processed

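Whole-kidney RNA of 3 Cy/+ and 3 +/+ samples was labeled by 1 round of cRNA synthesis and hybridized to Affymetrix rat genome arrays. GCOS was the authors' image software, and MAS5 is named in the submitters' processing notes. Deposited values are linear signal intensities (10.65 to 32240), with no detection calls used here. Scaling targets and genome builds are not given in the sources used here.

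Intensities were log2-transformed, with neither a pseudocount nor another scaling step. The table held 31099 probe sets, of which 57 controls were left out. Symbols came from the platform annotation and were updated by Entrez ID to RefSeq names of GRCr8 (20764 matched). Probe sets with several symbols (436) or none (9831) named no gene. The genotypes were compared by limma 3.58.1 under R 4.3.3 (lmFit, then eBayes with an intensity trend and no covariate), after the code was tested on simulated data. The number of arrays limits the precision.

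Members and lists were chosen with earlier results of these data known. All members are named, as are the 3 genes most like *Myc* and most like the AP-1 member of largest change, and from each list of related genes the 4 called genes of largest change. *Ier2*, *Nr4a1*, *Egr3*, *Ptgs2*, *Srf*, *Gclc*, *Max*, *Mlxipl*, *Mlx*, *Mxd1*, *Odc1* and the kidney markers named were picked with their values in view. The alternatives were quantile normalization, median centring, scaling to hybridization controls, a pseudocount of 16, a filter at the 60th percentile or none, a fit without trend, array weights, the methods' t-test, a replicate block, averaged probe sets, omission of probe sets shared by transcripts, and omission of single arrays.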

Additional observations from a re-analysis of the deposited data

Results flagged for a closer look

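Spiked-in controls, which carry no rat RNA, gave signals outside the comparison of genes that differed between the genotypes. Cy/+ arrays were brighter than +/+ arrays by a median of 1.83-fold over 18 hybridization control probe sets. For 24 poly-A control probe sets the median was 3.82-fold, and no probe set of either kind overlapped between the genotypes.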

How the results depend on the processing

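In every setting where they were tested, *Myc*, *Atf3*, *Egr1* and *Fos* were called higher in Cy/+ kidneys. Scaling to the poly-A controls was not among the settings. The median log2 difference of those controls was 1.93, against 2.50 for *Myc*, 2.33 for *Atf3*, 1.83 for *Egr1* and 1.75 for *Fos*. Leaving out 1 array gave log2 fold changes of 2.18 to 2.71 for *Myc*, 2.07 to 2.50 for *Atf3*, 1.48 to 2.10 for *Egr1* and 1.50 to 2.20 for *Fos*, with 7 members called each time. With a filter at the 60th percentile *Fos*, *Fosl2* and *Atf3* were not tested and 4 members were called, all higher. That filter left 1 gene called lower among the other bZIP genes, 1 among the upstream kinases and factors and 1 in the MAX network.

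With arrays scaled to the hybridization controls, 1100 probe sets were higher and 11643 lower, and 4 members were called higher. *Fosl2* (-0.16), *Jun* (-0.64), *Junb* (-0.049), *Jund* (-0.086), *Srf* (-0.27) and *Max* (-0.67) turned sign. In this setting 3 other immediate early genes were higher and 17 lower, and 0 of the other bZIP genes were higher and 7 lower. Upstream genes were 2 higher and 9 lower, and genes of the MAX network 3 higher and 9 lower. Myc targets were 4 higher and 24 lower, and 3 AP-1 targets were lower. *Max* (-0.19) and *Srf* (-0.046) also turned sign, and 5 upstream genes were lower, with probe sets averaged per gene. AP-1 targets called lower were 2 with no filter and 1 to 2 when 1 array was left out. The causes were not tested, other than the number of genes tested under each filter.

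The replicate numbers did not pair the samples (correlations of same-numbered deviations of 0.15, -0.11 and -0.15). With the replicate block 11633 probe sets were called, against 12491, and the block changed the call of no member.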
